A study of Mus musculus with 12 samples.

Results

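A set of 10 genes that write, copy, remove or read DNA methylation was followed in NE-4C cells with and without Faf2. They were taken by symbol (Dnmt1, Uhrf1, Dnmt3a, Dnmt3b, Dnmt3l, Tet1, Tet2, Tet3, Tdg and Zfp57), and all 10 were found among the 57010 genes of the table and passed the filter on low counts. NE-4C is a neural progenitor line from embryonic mouse brain that lacks p53. Bulk mRNA-Seq covered 12 libraries, 3 in each of 4 groups. WT NO and WT RA were wild-type cells, and KO NO and KO RA were cells of a Faf2 KO line in which CRISPR/Cas9 removed an exon of Faf2. NO cells were not treated. RA cells received 1 µM all-trans retinoic acid (RA) for 24 h and were then kept in growth media until 3 days after induction. The 3 libraries of a group came from independent passages, and all groups share the loss of p53. The methods describe colonies picked after editing and a single KO line, so the genotype and the history of that line cannot be told apart.

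Methylation of cytosine at CpG sites is copied onto new DNA by DNMT1, which UHRF1 brings to hemimethylated sites after replication. DNMT3A and DNMT3B place new methylation, and DNMT3L, which has no catalytic activity, stimulates them and is known for its role in germ cells. TET enzymes oxidize methylcytosine, TDG cuts out the oxidized bases, and ZFP57 binds a methylated motif at imprinted control regions. Many meiosis and germline genes have promoters that are methylated in somatic cells, and these genes are often expressed where methylation is lost. The RNA levels below measure no methylation.

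With all 12 libraries in edgeR, Dnmt3l was the only 1 of the 10 genes called different between KO and WT cells. It was 23.0-fold higher in KO NO than in WT NO and 16.8-fold higher in KO RA than in WT RA. Dnmt3l was also lower in KO RA than in KO NO. The levels of Uhrf1, Dnmt3a, Dnmt3b, Tet3, Tdg and Zfp57 lay below every WT NO library in every KO NO library. Over all tested genes, 15.2% lay below in this way. None of these 6 was called with all 12 libraries in edgeR. Without the library KO RA 3, described below, Uhrf1, Dnmt3a, Dnmt3b and Tet3 were called lower in KO NO, where 4.35% of all genes were. DESeq2 on all libraries called Uhrf1, Dnmt3a and Tet3 lower, and its counts over all genes are given further on. Tet3 was higher in KO RA than in KO NO. Called means an adjusted p under 0.05 (Benjamini-Hochberg, over all 16502 genes tested) by edgeR's quasi-likelihood test.

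The library KO RA 3 stood apart, with a TMM scaling factor of 0.394 (0.872 to 1.28 in the other 11) and 62.5% of its counts in its 100 most abundant genes (37.1% to 50.4%). Mitochondrial genes took 23.5% of its counts (9.10% to 17.7%). Library totals ran from 17370069 to 30738717 estimated counts. More genes were called without it in each of the 5 comparisons, so results are given with and without it. Faf2 was at 50.01, 38.8 and 36.0 CPM (the counts scaled to a common library total) in WT NO and at 21.0, 21.7 and 25.4 CPM in KO NO. Faf2 was at 35.1, 37.9 and 49.1 CPM in WT RA and at 36.1, 34.3 and 18.7 CPM in KO RA, so the RA groups overlapped. Faf2 was not called in KO NO against WT NO (log2 fold change -0.87, SE 0.27, edgeR adjusted p = 0.179) but was without KO RA 3 (edgeR adjusted p = 0.0111). Faf2 RNA outside the removed exon can persist, so the level is only a partial check of the genotype labels. The pluripotency gene Pou5f1 was at 1149 to 2278 CPM in WT NO in this neural line, and Zfp42, another pluripotency marker, was at or below 3 counts in every library. Pax6, a neural progenitor factor, was at 9.30, 8.80 and 4.12 CPM in WT NO and at 0.79, 1.10 and 2.01 CPM in KO NO, and was called lower (log2 fold change -2.50, edgeR adjusted p = 0.0264). It was the 1 of 5 neural progenitor markers called. Every KO NO library lay below every WT NO library for 3 of the 5, Pax6, Nes (log2 fold change -0.51) and Cdh2 (15.2% of all genes). All 3 were lower at an unadjusted p under 0.05 by edgeR's quasi-likelihood test (6.37% of all genes). Sox2 was above WT NO in every KO NO library (0.72, 15.5% of all genes) and Otx2 overlapped (0.03). The 5 markers summed to 254 to 300 CPM in WT NO and 255 to 289 CPM in KO NO.

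In GRCm39 the maintenance genes are Dnmt1 on chromosome 9 from 20817945 to 20871184 (minus strand) and Uhrf1 on chromosome 17 from 56610275 to 56630489 (plus strand). The de novo enzymes are Dnmt3a on chromosome 12 from 3856007 to 3964443 (plus strand) and Dnmt3b on chromosome 2 from 153490861 to 153529650 (plus strand). The erasers are Tet1 on chromosome 10 from 62640349 to 62744775 (minus strand), Tet2 on chromosome 3 from 133169436 to 133250900 (minus strand), Tet3 on chromosome 6 from 83339355 to 83436066 (minus strand) and Tdg on chromosome 10 from 82465610 to 82489654 (plus strand). The reader is Zfp57 on chromosome 17 from 37298936 to 37326192 (plus strand). Tdg shares 5389 exonic bases with Glt8d2 and Zfp57 shares 1474 with Mog, both on the opposite strand, and whether counting used strand is not given in the sources used here.

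Dnmt1, the maintenance methyltransferase, was at 63.6, 79.6 and 79.8 CPM in WT NO and at 91.2, 82.5 and 98.9 CPM in KO NO. Every KO NO library lay above every WT NO library, by a small step. Its log2 fold change was 0.29 (SE 0.40, edgeR adjusted p = 0.897). In RA cells Dnmt1 was at 58.1, 54.9 and 58.3 CPM in WT and at 77.0, 70.5 and 18.3 CPM in KO. The last value is that of KO RA 3, and KO RA 1 and KO RA 2 lay above all WT RA libraries. Dnmt1 was not called in any of the 5 comparisons, with or without KO RA 3.

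Uhrf1, its partner, was at 75.5, 72.4 and 54.8 CPM in WT NO and at 30.1, 29.4 and 31.9 CPM in KO NO. The groups did not overlap, and the KO NO libraries were close to each other. The difference was -1.15 on the log2 scale (SE 0.32, edgeR adjusted p = 0.135). After RA, Uhrf1 was at 57.5, 51.3 and 60.2 CPM in WT and at 33.4, 29.98 and 12.1 CPM in KO, again without overlap. That difference was -1.16 on the log2 scale (SE 0.32, edgeR adjusted p = 0.107). Without KO RA 3, Uhrf1 was called lower in KO NO (-1.14, edgeR adjusted p = 0.00114) and in KO RA (-0.84, edgeR adjusted p = 0.00909). Uhrf1 lies on chromosome 17, where all tested genes together were shifted, as given further on.

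Dnmt3a, a de novo methyltransferase, was at 65.3, 82.7 and 120 CPM in WT NO and at 40.6, 33.9 and 35.0 CPM in KO NO. The lowest WT NO library was well above the highest KO NO library. The log2 fold change was -1.29 (SE 0.38, edgeR adjusted p = 0.157). In RA cells the levels were 71.3, 68.3 and 73.6 CPM in WT and 33.2, 32.7 and 10.3 CPM in KO, with no overlap. In RA cells it differed by -1.48 on the log2 scale (SE 0.39, edgeR adjusted p = 0.0916). Without KO RA 3, Dnmt3a was called lower in KO NO (-1.28, edgeR adjusted p = 0.00425) and in KO RA (-1.11, edgeR adjusted p = 0.0132).

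Dnmt3b, the other de novo enzyme, was at 73.2, 75.7 and 74.1 CPM in WT NO and at 33.7, 40.4 and 43.5 CPM in KO NO. The groups were apart, with the WT NO libraries within a few CPM of each other. Dnmt3b differed by -0.92 on the log2 scale (SE 0.50, edgeR adjusted p = 0.517), and by -0.91 without KO RA 3, where it was called (edgeR adjusted p = 0.00778). After RA, Dnmt3b was at 42.7, 49.3 and 63.8 CPM in WT and at 43.2, 53.4 and 7.63 CPM in KO. These groups overlapped, and Dnmt3b was not called between them with or without KO RA 3.

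Dnmt3l, the cofactor without catalytic activity, was at 0.92, 1.03 and 0.79 CPM in WT NO and at 27.2, 17.03 and 19.2 CPM in KO NO. Every KO NO library was far above every WT NO library. The log2 fold change was 4.53 (SE 0.61, edgeR adjusted p = 0.00669). In WT RA, Dnmt3l was at 0, 0.15 and 0.24 CPM, and in KO RA at 3.20, 0.82 and 2.78 CPM. KO RA was again above WT RA in every library (log2 fold change 4.07, SE 0.71, edgeR adjusted p = 0.0245). The WT RA values rest on 0, 2.54 and 5.17 estimated counts, so that fold is poorly fixed.

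With RA, Dnmt3l fell in KO cells (log2 fold change -3.24, SE 0.57, edgeR adjusted p = 0.0102). In WT cells the difference was -2.79 (SE 0.72, edgeR adjusted p = 0.137), and it was called without KO RA 3 (edgeR adjusted p = 0.0357). The RA responses of the 2 genotypes differed by -0.45 on the log2 scale (SE 1.04, edgeR adjusted p = 0.908). The Dnmt3l levels of KO RA overlapped those of WT NO. The call in KO NO against WT NO held in 18 of 19 alternatives and was lost without WT NO 1 (edgeR adjusted p = 0.0509). The call in KO RA against WT RA held in 9 of 19. It was lost with edgeR on the groups compared, with limma-voom and with the replicate number as a block. It was also lost without any 1 library of WT RA or KO NO and without KO RA 1, where the edgeR adjusted p ran from 0.0551 to 0.103. The call in KO RA against KO NO held in 17 of 19. It was lost with edgeR on the groups compared and without KO NO 1 (edgeR adjusted p = 0.0657).

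**Figure D1:**
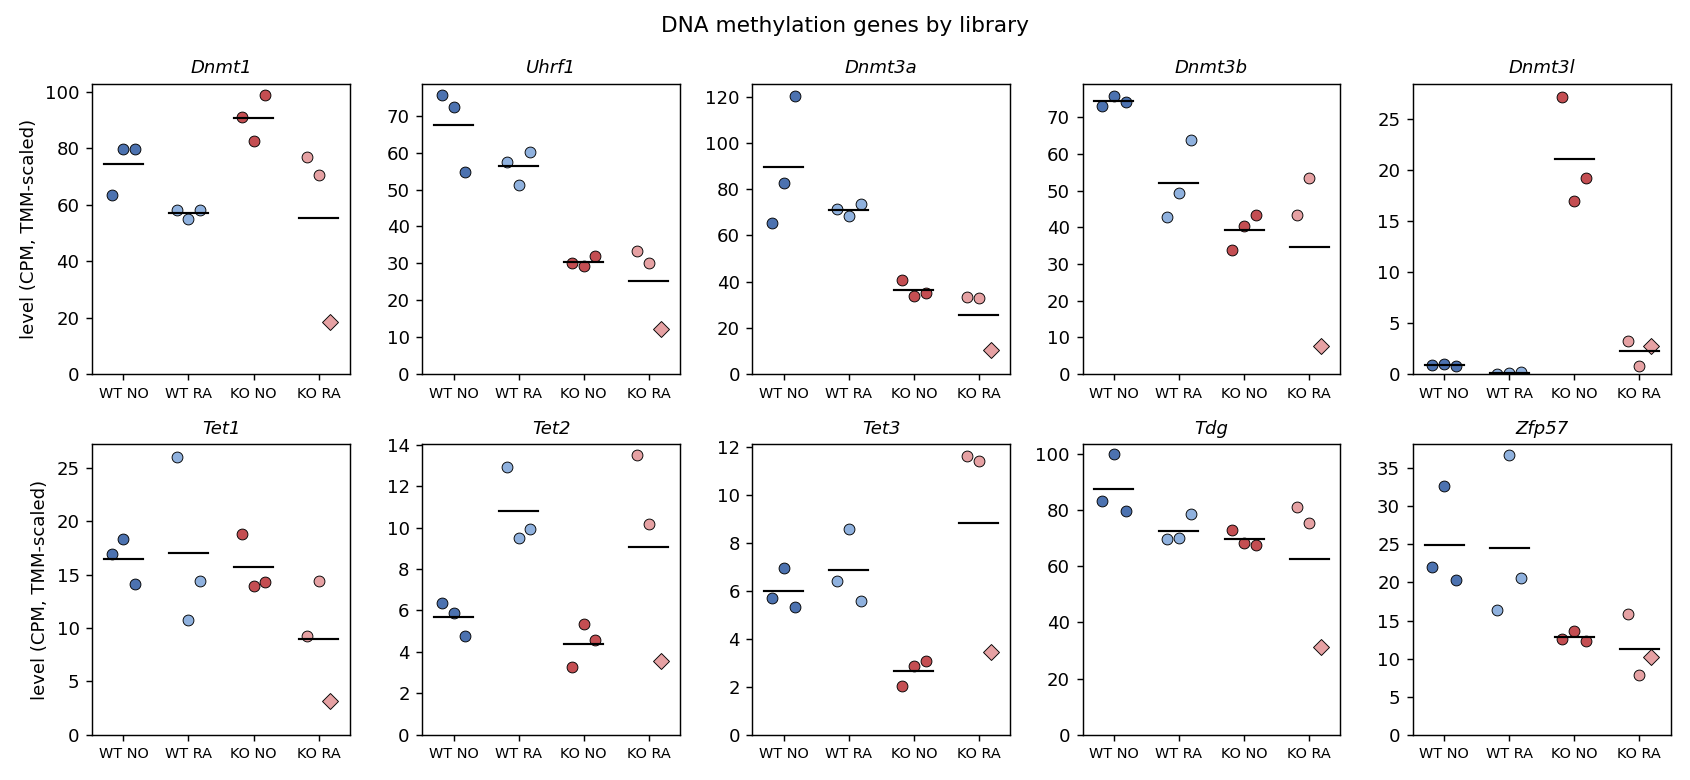
Levels of the 10 genes in CPM (TMM-scaled) on the vertical axes, which start at 0, by group. Points are libraries, the diamond is KO RA 3 and bars are means of 3 libraries. Dnmt3l stands at 17.03 to 27.2 CPM in KO NO and at or below 3.20 CPM elsewhere.

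Dnmt3l (ENSMUSG00000000730) lies on chromosome 10, 77877781 to 77899456, plus strand, in GRCm39. The gene overlaps Aire on the opposite strand, with 67 shared exonic bases. Aire was at 0.264, 0.148 and 0.0558 CPM in KO NO and at or below 3 counts in WT NO, far under Dnmt3l. With RA, Aire was at 0.529, 0.145 and 0.0955 CPM in WT and at 0.316, 0.954 and 0.0991 CPM in KO. Those levels overlapped the levels of Dnmt3l in both RA groups, and reads of the pair may be confused if counting ignored strand. Of the 5 tested genes that overlap Dnmt3l or lie within 100000 bases, none was called in either comparison of KO with WT.

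The stretches before the start of the canonical transcript are shown because Dnmt3l rose, Stag3 is the germline gene described below, and Dnmt3a had the most CpG sites of the 10 genes in 250 bases (39, beside 38 for Tet3). In 1000 bases Tet3 had 104 and Dnmt3a 89. Capitals mark CpG. The Dnmt3l and Dnmt3a stretches hold 250 bases, and that of Stag3 was cut to 152 where an annotated exon begins. They were read from GRCm39 at chr10:77885426-77885675, chr5:138278350-138278501 and chr12:3856713-3856962, all on the plus strand.
Dnmt3l: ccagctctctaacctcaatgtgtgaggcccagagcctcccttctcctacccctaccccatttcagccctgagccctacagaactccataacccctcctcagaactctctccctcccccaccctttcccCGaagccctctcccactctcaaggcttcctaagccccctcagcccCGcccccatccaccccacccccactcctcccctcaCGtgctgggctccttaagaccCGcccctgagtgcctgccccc
Stag3: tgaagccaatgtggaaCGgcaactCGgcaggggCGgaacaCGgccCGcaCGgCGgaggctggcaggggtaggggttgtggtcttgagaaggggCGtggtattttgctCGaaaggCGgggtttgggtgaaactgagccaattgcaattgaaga
Dnmt3a: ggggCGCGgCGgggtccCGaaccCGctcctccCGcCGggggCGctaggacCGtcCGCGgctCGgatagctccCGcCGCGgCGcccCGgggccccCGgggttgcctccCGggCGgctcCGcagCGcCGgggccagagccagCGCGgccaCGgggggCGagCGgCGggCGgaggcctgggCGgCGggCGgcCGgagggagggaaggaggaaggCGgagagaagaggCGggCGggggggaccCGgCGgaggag
The Dnmt3l stretch has 4 CpG sites and that of Dnmt3a 39. Over 21752 protein-coding promoters the median was 8 CpG sites in 250 bases, and 30.6% of them had fewer than Dnmt3l. In 1000 bases Dnmt3l had 20, above the median of 18. The whole 250 bases before Stag3 held 17. The sequence CACGTG, an E-box searched on both strands, occurs before Dnmt3l, Tet2 and Tet3 and in 6.27% of all promoters. TCCCGC, an E2F-type sequence, occurs before Dnmt3a, Tet3 and Zfp57 and in 18.4% of all promoters, and TGCCGC, the core that ZFP57 binds, occurs before Tet3 and in 8.51%. These matches describe the letters only.

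Tet1, a dioxygenase that starts demethylation, was at 16.9, 18.3 and 14.1 CPM in WT NO and at 18.8, 13.95 and 14.3 CPM in KO NO, overlapping. After RA it was at 26.1, 10.7 and 14.4 CPM in WT and at 9.30, 14.4 and 3.17 CPM in KO. Tet1 was not called in any comparison, and its log2 fold change in KO NO was -0.07 (SE 0.46).

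Tet2, a second enzyme of that family, was at 6.37, 5.88 and 4.79 CPM in WT NO and at 3.25, 5.36 and 4.55 CPM in KO NO. The groups overlapped (log2 fold change -0.37, SE 0.40). Tet2 was at 12.9, 9.51 and 9.94 CPM in WT RA, above every WT NO library, and at 13.5, 10.2 and 3.57 CPM in KO RA. The RA differences were 0.93 in WT (SE 0.40, edgeR adjusted p = 0.371) and 1.06 in KO (SE 0.40, edgeR adjusted p = 0.143) on the log2 scale. Without KO RA 3 both were called, at 0.93 in WT (edgeR adjusted p = 0.0266) and 1.42 in KO (edgeR adjusted p = 0.00428).

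Tet3, the third enzyme, was at 5.71, 6.95 and 5.34 CPM in WT NO and at 2.05, 2.87 and 3.10 CPM in KO NO, with no overlap. The log2 fold change was -1.16 (SE 0.40, edgeR adjusted p = 0.246), and without KO RA 3 it was -1.15 and called (edgeR adjusted p = 0.0121). Tet3 was at 6.44, 8.58 and 5.59 CPM in WT RA and at 11.6, 11.4 and 3.47 CPM in KO RA. With RA, Tet3 rose in KO cells (log2 fold change 1.73, SE 0.41, edgeR adjusted p = 0.035), a call held in 8 of 20 alternatives. That call was lost without any 1 library of WT RA or KO NO and without WT NO 2, KO RA 1 or KO RA 2 (edgeR adjusted p from 0.0529 to 0.14). It was also lost without a filter beyond 1 count, with edgeR on the groups compared and with the replicate number as a block. The RA difference in WT was 0.20 (SE 0.40, edgeR adjusted p = 0.912). The difference between the genotypes' responses was 1.54 (SE 0.57, edgeR adjusted p = 0.486) and was called without KO RA 3 (1.89, edgeR adjusted p = 0.0294). Tet3 shares 1512 exonic bases with Bola3 on the opposite strand, so reads of the pair may be confused if counting ignored strand.

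Tdg, the glycosylase that removes oxidized bases, was at 83.1, 99.8 and 79.5 CPM in WT NO and at 72.9, 68.1 and 67.7 CPM in KO NO. The groups were apart by a small step (log2 fold change -0.33, SE 0.30, edgeR adjusted p = 0.79). After RA it was at 69.6, 70.0 and 78.4 CPM in WT and at 81.0, 75.2 and 31.1 CPM in KO, overlapping. Tdg was not called in any comparison, with or without KO RA 3.

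Zfp57, the reader at imprinted regions, was at 22.0, 32.6 and 20.3 CPM in WT NO and at 12.5, 13.7 and 12.3 CPM in KO NO. The KO NO libraries were close to each other and below all WT NO libraries. Zfp57 differed by -0.96 on the log2 scale (SE 0.34, edgeR adjusted p = 0.267). In RA cells Zfp57 was at 16.3, 36.7 and 20.6 CPM in WT and at 15.8, 7.90 and 10.2 CPM in KO, apart by a narrow margin. That difference was -1.12 (SE 0.35, edgeR adjusted p = 0.148). Neither was called without KO RA 3. Zfp57 also lies on chromosome 17.

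**Figure D2:**
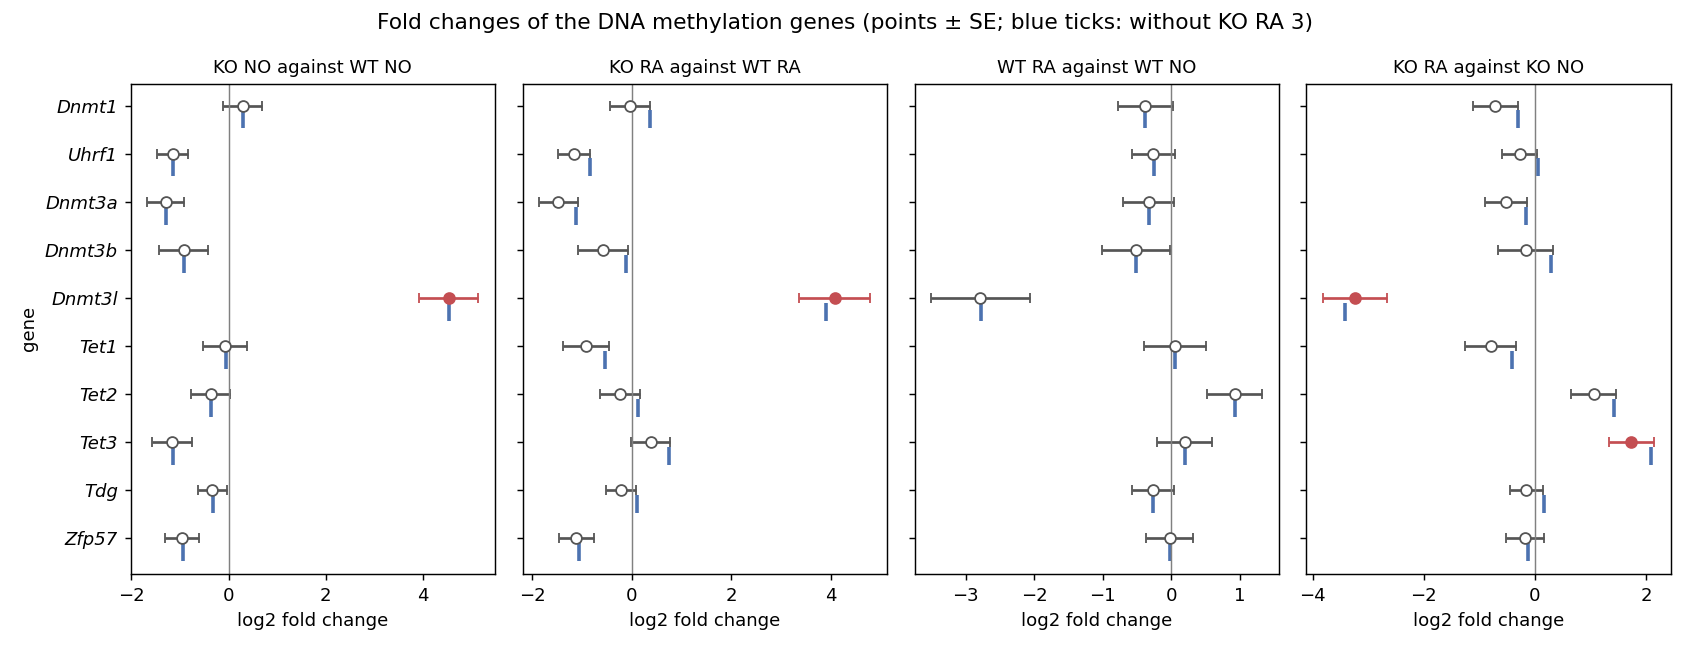
Log2 fold changes of the 10 genes (horizontal axes, one scale per panel) in 4 comparisons. Points are edgeR estimates with SE, filled red where called, and blue ticks are the values without KO RA 3. Dnmt3l is called in 3 panels and Tet3 in 1.

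Between KO NO and WT NO, 1 of the 10 genes was called higher and 0 lower, where 0.788% and 0.351% of all tested genes were called (1.14% in either direction). KO NO lay above WT NO without overlap in 2 of the genes and below it in 6, against 15.5% and 15.2% of all genes. The median difference of the 10 was -0.65 on the log2 scale, beside -0.02 over all genes. At an unadjusted p under 0.05, 1 was higher and 4 were lower (5.81% and 6.37% of all genes).

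Between KO RA and WT RA, 1 of the 10 was called higher and 0 lower (0.885% and 0.358% of all genes, 1.24% together), with a median of -0.41 beside 0.09. KO RA lay apart above WT RA in 1 and below it in 3 (9.97% and 10.9%). At an unadjusted p under 0.05, 1 was higher and 3 were lower (10.9% and 6.67%). Between WT RA and WT NO, 0 of 10 were called by edgeR's quasi-likelihood test (0.321% of all genes higher and 0.0848% lower, 0.406% together), while DESeq2 on all libraries called Dnmt3l. At an unadjusted p under 0.05, Tet2 was higher and Dnmt3l lower (6.76% and 5.79%), and 1 gene lay apart above and 4 below (15.1% and 14.0%). Between KO RA and KO NO, Tet3 was called higher and Dnmt3l lower (3.89% and 1.59% of all genes, 5.48% together), with 1 gene apart above and 3 below (13.2% and 17.0%). An unadjusted p under 0.05 was reached by 2 higher genes and 1 lower (15.8% and 9.42%). For the difference of RA responses 0 of 10 were called by edgeR's quasi-likelihood test and 0 by DESeq2 on all libraries, and an unadjusted p under 0.05 was reached by 1 higher gene and 0 lower (5.53% and 3.09% of all genes).

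Without KO RA 3, Dnmt3l was called higher and Uhrf1, Dnmt3a, Dnmt3b and Tet3 lower in KO NO, where 4.43% of all genes were higher and 4.35% lower (8.78% together). In KO RA, Dnmt3l was called higher and Uhrf1 and Dnmt3a lower than in WT RA (4.42% and 5.44%, 9.85% together). With RA, Tet2 was called higher and Dnmt3l lower in WT (5.65% and 5.13%, 10.8% together). In KO, Tet2 and Tet3 were called higher and Dnmt3l lower with RA (8.48% and 7.54%, 16.0% together). The difference of RA responses was called for Tet3 (0.802% of all genes higher and 0.537% lower, 1.34% together).

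Uhrf1 and Zfp57 lie on chromosome 17, where the median over 794 tested genes was -0.47 on the log2 scale between KO NO and WT NO, with 84.8% of them below 0. Between KO RA and WT RA it was -0.46. Chromosome 13, which holds Faf2, had a median of -0.36 between KO NO and WT NO and of -0.15 between KO RA and WT RA. The other chromosomes ran from -0.15 to 0.17 between KO NO and WT NO. Genes within 5 Mb of Uhrf1 had a median of -0.46 between KO NO and WT NO and those around Zfp57 of -0.49. The log2 fold changes of Uhrf1 (-1.15) and Zfp57 (-0.96) were larger than those medians. Dnmt3a, Dnmt3b and Tet3 lie on chromosomes 12, 2 and 6, whose medians between KO NO and WT NO were 0.04, -0.08 and -0.15. The 36 tested genes within 5 Mb of Dnmt3a had medians of -0.24 without RA and -0.33 with RA. From RNA, a different number of copies of chromosomes 17 and 13 in the KO line and a change in the expression of their genes cannot be told apart, which bears on Uhrf1, Zfp57 and Faf2.

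**Figure D3:**
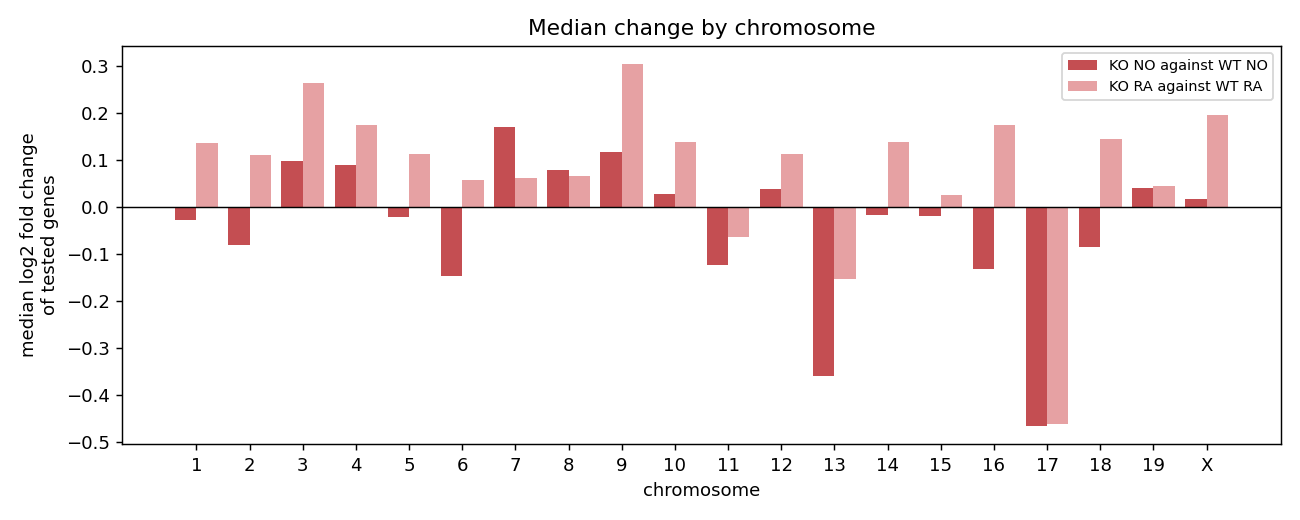
Median log2 fold change of tested genes (vertical axis) by chromosome (horizontal axis) for KO against WT without and with RA. Chromosome 17, with Uhrf1 and Zfp57, is lowest in both, at -0.47 and -0.46.

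Of 58 germline genes, 27 were tested, and between KO NO and WT NO 9 were called higher and 0 lower, where 0.788% and 0.351% of all genes were. Of the 27, 5 (Rec8, Smc1b, Rad21l, Tdrd1 and Terb1) had no WT NO library above 3 counts, so they passed the filter through other groups, and 1 of the 9 called genes was among them. Of the other 22, 8 were called higher. In KO RA against WT RA, 7 were called higher and 0 lower (0.885% and 0.358% of all genes). All 7 were among the 22 tested genes above that floor in WT RA. Being above that floor takes only 1 library over 3 counts, so genes such as Stag3 still passed the filter through KO libraries. With at least 10 counts in every library, 2 germline genes were called higher in KO NO and 3 in KO RA. Stag3, a cohesin subunit of meiosis, was at 0.14, 0.41 and 0.31 CPM in WT NO and at 22.5, 25.3 and 27.1 CPM in KO NO. Stag3 was at 0.14, 0.24 and 0.10 CPM in WT RA and at 26.7, 23.9 and 9.81 CPM in KO RA. All KO libraries were far above all WT libraries, with log2 fold changes of 6.44 (SE 0.50, edgeR adjusted p = 0.000255) and 6.93 (SE 0.54, edgeR adjusted p = 0.000746).

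Hormad2, a protein of meiotic chromosome axes, was at 10.1, 9.09 and 11.1 CPM in KO NO and at 0.458, 0.111 and 0.0916 CPM in WT NO. Rbm46, an RNA-binding protein needed for meiosis, was at 22.3, 24.8 and 26.0 CPM in KO NO and at 6.27, 6.73 and 5.49 CPM in WT NO. The other named germline genes were 4930447C04Rik, Zcwpw1 and Mei4, with log2 fold changes of 7.01, 2.85 and 2.91. With RA, the log2 fold changes in KO cells were -0.31 for Stag3 (SE 0.38), -0.16 for Hormad2 (SE 0.44) and 0.07 for Rbm46 (SE 0.18), none called, beside -3.24 for Dnmt3l. Of the 27 tested germline genes, 2 were called with RA in KO cells, 1 higher and 1 lower (3.89% and 1.59% of all genes, 5.48% together). Tdrd5, a germ cell protein of the piRNA pathway, was at 16.9, 16.8 and 14.5 CPM in KO NO and at 4.51, 4.63 and 3.37 CPM in KO RA, and fell (log2 fold change -1.94, SE 0.40, edgeR adjusted p = 0.0196). Taf9b was at 1.14, 1.45 and 1.65 CPM in KO NO and at 4.97, 2.18 and 34.4 CPM in KO RA, the last value being KO RA 3, and rose (log2 fold change 3.27, SE 0.81, edgeR adjusted p = 0.0422). The difference between these responses and that of Dnmt3l was not tested.

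**Figure D4:**
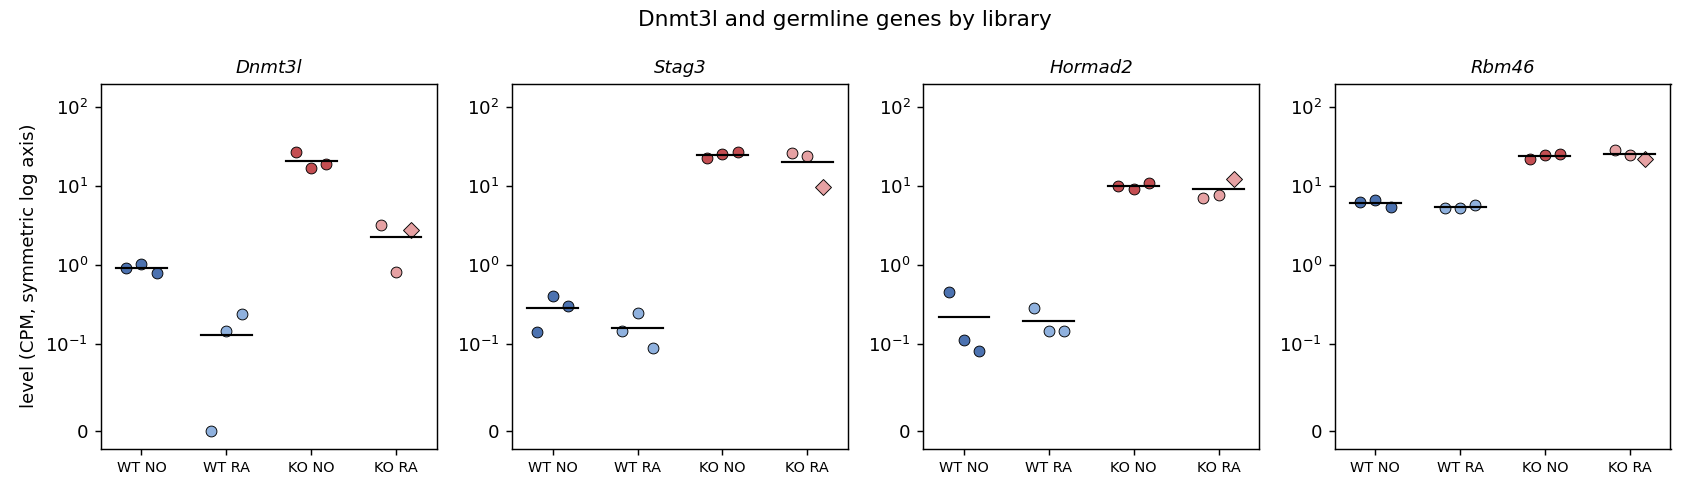
Levels in CPM of Dnmt3l, Stag3, Hormad2 and Rbm46 by group on a symmetric log axis. Points are libraries, the diamond is KO RA 3 and bars are means. Dnmt3l is at 0.82 to 3.20 CPM in KO RA and Stag3 at 9.81 to 26.7 CPM.

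The 5 tested genes with the profile most like Dnmt3l were Trim6, Dlx6, Gdf1, Capg and Platr10. Likeness was the root mean square difference of log2 CPM over 12 libraries, each gene centred on WT NO, and ran from 0.769 to 0.900 (median over tested genes 2.20). Stag3 was at 2.11. Platr10, a noncoding RNA, was at 97.5, 105 and 102 CPM in KO NO and at 27.6, 43.4 and 44.1 CPM in KO RA. Its WT NO libraries were at 11.9, 10.3 and 7.26 CPM. Gdf1 was listed at 0 in all libraries but those of KO NO.

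Of 55 other genes of the methylation pathway, 51 were tested and 0 were called in any of the 5 comparisons by edgeR's quasi-likelihood test. In KO NO against WT NO, an unadjusted p under 0.05 was reached by 4 higher and 3 lower genes of the 51 (5.81% and 6.37% of all genes). DESeq2 on all libraries called 4 higher and 1 lower, and its counts over all genes are given further on. Without KO RA 3, Setdb1, Uhrf2, Ogt, Smug1 and Dppa3 were called higher and Idh2 and Kdm1b lower (4.43% and 4.35% of all genes). Uhrf2, a relative of Uhrf1, was at 58.7, 64.6 and 62.7 CPM in KO NO and at 36.5, 35.6 and 46.5 CPM in WT NO. Dppa3, a germ cell and oocyte protein that limits UHRF1, was at 14.9, 3.58 and 3.15 CPM in KO NO and at 0.53, 0.81 and 0.40 CPM in WT NO. Kdm1b, a histone demethylase needed for methylation in oocytes, was at 1.79, 1.93 and 2.37 CPM in KO NO and at 4.05, 4.73 and 4.21 CPM in WT NO.

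Dnmt1 and Uhrf1 vary with the cell cycle, and so the S phase genes are given beside them. Of 18 S phase genes, 0 were called by edgeR's quasi-likelihood test in KO NO against WT NO. At an unadjusted p under 0.05, 2 were lower (6.37% of all genes). KO NO lay below WT NO without overlap in 6 of the 18 and above it in 1 (15.2% and 15.5% of all genes). Their median log2 fold change was -0.18, beside -0.02 over all genes, with 15 below 0 and 3 above. DESeq2 on all libraries called 1 lower, and 4 were called lower without KO RA 3 (4.35% of all genes). Their summed level was 1813 to 2035 CPM in WT NO and 1708 to 1799 CPM in KO NO, and their part in the result was not tested. Of the imprinted genes at regions ZFP57 binds, 18 were tested. Zim1 and Peg10 were called higher and Igf2 and Peg13 lower between KO NO and WT NO (0.788% and 0.351% of all genes). Zim1 had no WT NO library and Peg13 no KO NO library above 3 counts, so both passed the filter through other groups. Without KO RA 3, 7 were called higher and 3 lower (4.43% and 4.35% of all genes), Zim1 and Peg13 among them. Peg10 was at 40.9, 47.4 and 22.7 CPM in WT NO and at 123, 90.5 and 127 CPM in KO NO. In bulk RNA, fewer expressing cells and less RNA per cell cannot be told apart.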

How the data were processed

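The authors prepared mRNA libraries from NE-4C cells and ran the NF-Core RNA-Seq pipeline at its defaults (STAR alignment, Salmon quantification) on GRCm39, and the submitters' processing notes name DESeq2. The values deposited by the authors are estimated counts of each gene, not normalized between libraries. They are scaled from TPM to each library's total, so they are corrected for gene length and are not numbers of fragments. Columns were matched to samples by the labels.

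Counts were rounded to whole numbers. Genes were filtered with filterByExpr, libraries scaled with TMM factors, and 1 model with a coefficient per group fitted to all 12 libraries in edgeR 4.0.16 (R 4.3.3), which left 8 residual degrees of freedom. Calls used Benjamini-Hochberg adjusted p under 0.05 over 16502 genes. A gene with no library of a group above 3 counts was treated as at the floor there. Depth was the library total, and p-values measure the spread between passages. The test was tried on simulated data with less spread between libraries than these (common dispersion 0.215) and no library that stood apart. That trial is no measure of how often the test finds a change here.

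Alternatives were DESeq2 1.42.0, its size factors, other filters, only the groups compared, limma-voom (limma 3.58.1), the replicate number as a block, and each library left out. Promoters were read from GRCm39 with the GENCODE annotation in Python 3.11.15, with 250 bases or 1000 as the alternative, and figures were drawn with matplotlib 3.10.9.

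The members and lists were chosen with earlier results of these data known. Genes named are the 10 members, Faf2, Stag3, the 6 germline genes with the smallest adjusted p in KO NO against WT NO (Stag3 among them), pathway genes called, the 5 most like Dnmt3l, and list genes that touch a result. Aire, Bola3, Glt8d2 and Mog were added because they overlap members, and the pathway genes called without KO RA 3, Tdrd5, Taf9b, Prdm9 and Hspa2 were chosen after their values were seen.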

Additional observations from a re-analysis of the deposited data

How the results depend on the processing

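Of the 10 genes, the number called in KO NO against WT NO was 1. It became 4 with DESeq2 on all libraries, 6 with edgeR or DESeq2 on the groups compared and 7 with limma-voom. It was 0 with at least 10 counts in every library, where Dnmt3l was not tested. Over all genes, limma-voom called 1794 higher and 1781 lower there, beside 130 and 58 in the main test. Counts over all genes on the groups compared are not given for this comparison, so the counts of 6 stand without a share. For KO RA against WT RA the number of the 10 genes called was 1. It became 3 with DESeq2 on all libraries, and 0 and 2 with edgeR and DESeq2 on the groups compared. It became 4 with limma-voom and 0 with at least 10 counts. Over all genes, limma-voom called 1613 higher and 1380 lower, and edgeR on the groups compared 16 and 0, beside 146 and 59. There limma-voom called Tet3 higher and Uhrf1, Dnmt3a and Zfp57 lower, and did not call Dnmt3l. For WT RA against WT NO the number was 0 and became 1, 3 and 2 with DESeq2 on all libraries, DESeq2 on the groups compared and limma-voom. For KO RA against KO NO it was 2 and became 1 without a filter beyond 1 count, 1 with at least 10 counts, 0 with edgeR on the groups compared, and 3 with DESeq2 on all libraries and with limma-voom, which added Tet2. The difference of RA responses had 0 and became 1 with limma-voom. With each library left out, the counts ran from 0 to 5, 0 to 3, 0 to 2, 0 to 3 and 0 to 1 in the 5 comparisons, with the highest of each without KO RA 3.

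Germline genes called higher were 9 in KO NO against WT NO. They became 15 and 17 with DESeq2 on all libraries and on the groups compared and 17 with limma-voom. They were 2 with at least 10 counts, and 5 to 15 with a library left out. Over all genes, 1794 were called higher with limma-voom and 25 with at least 10 counts, beside 130 in the main test. Limma-voom also called 2 lower there (Prdm9 and Hspa2), where the other alternatives called 0. In KO RA against WT RA, germline genes called higher were 7. They became 15 with DESeq2 on all libraries, 11 with limma-voom and 3 with at least 10 counts. They were 3 with edgeR on the groups compared and 4 to 11 with a library left out. Over all genes, 1613 were called higher with limma-voom and 16 with edgeR on the groups compared, beside 146.

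Correlations between same-numbered libraries of different groups ran from -0.263 to 0.107 (18 pairs, 2 over 0.1). Those between differently numbered libraries ran from -0.223 to 0.248. In such small groups the library that stood apart can set the deviations of its whole group. These correlations therefore cannot decide whether the numbers pair the samples. With the replicate block, the genes called were 0 in KO RA against WT RA and 1 in KO RA against KO NO, and germline genes in KO NO against WT NO were 5. Imprinted genes called higher and lower in KO NO against WT NO were 2 and 2, and became 1 (Sgce) and 0 with the block. In alternatives added after seeing the data, they were 6 and 2 with DESeq2 on all libraries and 8 and 4 with limma-voom.

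Log2 fold changes that changed sign were not called where they did. With limma-voom, Dnmt1 in KO RA against WT RA was 0.32, Tet2 0.044 and Tdg 0.069, and in KO RA against KO NO, Uhrf1 was 0.022, Dnmt3b 0.25 and Tdg 0.15. With a library left out, the first 3 ran from -0.35 to 0.36, -0.61 to 0.12 and -0.43 to 0.10, and the next from -0.51 to 0.047, -0.62 to 0.29 and -0.36 to 0.16, each highest without KO RA 3. Dnmt3l in the difference of RA responses ran from -1.03 to 0.32 (highest without WT RA 3). Tet1 ran from -0.22 to 0.017 in KO NO against WT NO (highest without WT NO 2) and from -0.39 to 0.30 in WT RA against WT NO (lowest without WT RA 1). Zfp57 ran from -0.43 to 0.21 in WT RA against WT NO (highest without WT NO 2) and from -0.46 to 0.052 in KO RA against KO NO (highest without KO RA 2). The causes were not tested.

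Genes called higher and lower in KO NO against WT NO were 130 and 58, and became 517 and 498 with DESeq2 on all libraries, 1794 and 1781 with limma-voom, 50 and 6 with the replicate block, and 35 to 767 and 4 to 754 with a library left out. Over the alternatives, genes called higher and lower ran from 16 to 1613 and 0 to 1380 in KO RA against WT RA (146 and 59), from 0 to 1787 and 0 to 1789 in WT RA against WT NO (53 and 14), from 152 to 2502 and 18 to 2032 in KO RA against KO NO (642 and 262), and up to 599 and 402 for the difference of RA responses (0 and 0). Pathway genes called ran from 0 to 15 over the alternatives in KO NO against WT NO. In 1000 bases before the start, Dnmt3l had 20 CpG sites and Stag3 52, where all promoters had a median of 18, so Dnmt3l was below the median in 250 bases (4 beside 8) and above it in 1000. Groups of 3, a single KO line and 1 library that stood apart limit these comparisons.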

Other observations

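Of 23 imprinted genes at control regions that ZFP57 binds, 18 were tested. Between KO RA and WT RA, 3 were called higher and 0 lower (0.885% and 0.358% of all genes). Zim1, among the 3, had no WT RA library above 3 counts. With RA, 2 imprinted genes were called higher in WT and 2 in KO cells (0.321% and 3.89% of all genes), H19 and Igf2 in both. Their summed level was 1117 to 1708 CPM in WT NO, 1407 to 1539 CPM in KO NO, 1532 to 1660 CPM in WT RA and 1910 to 2296 CPM in KO RA. Peg10 was higher in KO RA, at 323, 258 and 146 CPM, beside 38.3, 39.9 and 36.5 CPM in WT RA (log2 fold change 2.66, SE 0.35, edgeR adjusted p = 0.00753). The summed level of the 58 germline genes was 108 to 155 CPM in WT NO and 434 to 509 CPM in KO NO.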
